A study of Mus musculus with 8 samples.

Results

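The miR-379/miR-410 cluster is a row of miRNA genes in the imprinted Dlk1-Dio3 region of mouse chromosome 12, and it was followed here in P19 and C2C12 cells with and without PERK knockdown. Its members were chosen by name, as every mature arm of 37 hairpin genes from miR-379 to miR-410. The choice used no measured value, though it was made with earlier results of these data known. The rule found 74 arms among the 1978 mature miRNAs of the C2C12 count tables, 63 arms among the 696 miRNAs listed for P19 cells, and 2 arms among the 605 miRNAs listed for C2C12 cells with an ATF4 vector. The P19 table holds arms of 35 of the 37 hairpins, and 11 arms are not in it and have no P19 value, namely miR-1197-5p, miR-758-5p, miR-666-3p, miR-495-5p, miR-539-3p, miR-668-5p, miR-496a-5p and both arms of miR-654 and miR-544. An arm is listed where it reached 1 RPM in either P19 library, so counts over the 63 are counts of listed arms.

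Small RNA was sequenced from 8 libraries, with 1 library per condition. P19 cells, a mouse embryonal carcinoma line, carried a small hairpin RNA against Perk (P19 shPerk) or a negative control hairpin (P19 shNC). C2C12 cells, a mouse myoblast line, carried the same kinds of hairpin at day 0, before differentiation, or at day 3 of differentiation (shNC D0, shPerk D0, shNC D3, shPerk D3), or carried an empty vector or an ATF4 overexpression vector. PERK is a kinase sensor of endoplasmic reticulum stress, and ATF4 is the transcription factor downstream of it. The methods describe the C2C12 hairpin lines as stable lines made by lentiviral infection and selected once with puromycin. They do not say whether a line came from 1 clone, and neither the day nor the induction state of the P19 cells is in the labels. The replicate spread is therefore unknown, no difference between conditions has a test, and Perk mRNA is not measured by these libraries. A miRNA is called higher or lower where its log2 fold change, with library sizes scaled by edgeR's TMM factors over the whole table, was beyond 1.

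Imprinted genes are read from only one parental chromosome, and the miRNAs of this region are expressed from the maternal chromosome, together with the long non-coding RNAs Meg3, Rian and Mirg. The cluster lies at the distal end of the region and is known for its expression in the embryo, the placenta and the brain, while its activity in pluripotent cells depends on the imprint. Each hairpin is processed by Drosha and Dicer to a duplex, and the 5p and 3p arms are its 2 strands, one of which is usually kept by Argonaute in larger amounts. The seed, bases 2 to 8 of the mature arm, pairs with target mRNAs, so arms that share a seed can share targets.

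On GRCm38 the 37 hairpins lie in 34736 bp, from chr12:109709060-109743795. The hairpins of the plus strand number 36. The hairpin of miR-299b lies on the minus strand, opposite to that of miR-299a, and the arms of both are near-identical in sequence and in value, so their reads cannot be told apart. The GENCODE annotation gives no host transcript for 25 of the hairpins, while 12 lie in Mirg (chr12:109729764-109749460), 8 of them in an exon and 4 in an intron.

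RefSeq (GRCm38.p6) held the mature sequence of 70 of the 74 arms, all but miR-376c-3p, miR-487b-3p, miR-539-3p and miR-485-5p. The first set below holds the arms of miR-379 and miR-410, the end hairpins of the cluster, and the most abundant other arms of P19 shNC cells, with the seed in capitals.
miR-379-5p: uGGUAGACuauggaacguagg
miR-379-3p: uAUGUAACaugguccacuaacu
miR-541-5p: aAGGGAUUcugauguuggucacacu
miR-381-3p: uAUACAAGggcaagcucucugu
miR-409-3p: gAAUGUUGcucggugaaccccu
miR-411-5p: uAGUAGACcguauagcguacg
miR-410-5p: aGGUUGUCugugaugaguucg
miR-410-3p: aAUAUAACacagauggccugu

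The 70 sequences held 64 different seeds, and 6 seeds were each shared by 2 members. The pairs of the second set are shown because they share a seed or nearly the whole arm. The miR-379-3p and miR-411-3p arms share their seed and differ by U10C and U22C, counted from the 5′ end. The miR-376b-5p and miR-376c-5p arms share a seed and differ by G19U alone. The miR-300-3p and miR-381-3p arms differ by G4A, within the seed, and by U21G and C22U at the 3′ end. The arms miR-494-5p and miR-410-5p share a seed, as do miR-379-5p of the first set and miR-1193-5p. The remaining shared seeds are those of miR-299a-3p with miR-299b-3p and of miR-1197-5p with miR-758-5p.
miR-411-3p: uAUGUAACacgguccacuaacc
miR-376b-5p: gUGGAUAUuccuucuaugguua
miR-376c-5p: gUGGAUAUuccuucuauguuua
miR-300-3p: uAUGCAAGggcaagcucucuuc
miR-1193-5p: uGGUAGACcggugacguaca
miR-494-5p: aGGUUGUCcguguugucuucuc

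The third set holds the arms with the largest falls in P19 shPerk cells at a mean of at least 10 RPM, and the miR-134-5p arm, a neuronal miRNA known for its action on dendritic spines.
miR-667-3p: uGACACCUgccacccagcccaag
miR-668-3p: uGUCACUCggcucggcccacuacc
miR-485-3p: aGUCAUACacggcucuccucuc
miR-134-5p: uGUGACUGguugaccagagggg

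Short runs recurred across arms, inside the seed or outside it. The letters GUUGCC were found in 6 of 35 5p arms of the cluster (17.1%), against 1 of 661 5p arms elsewhere (0.151%), and GGUCCA in 5 of 33 3p arms (15.2%), against 0 elsewhere. ACACGG stood in 5 of 33 3p arms of the cluster and in 0.148% of those elsewhere. These 6-letter runs were searched on the mature strand only and are examples of runs held by at least 5 members. The arms searched were those with a sequence, without the arms of miR-299b. Others were more common elsewhere, such as AGGUUG in 5 of 35 5p arms of the cluster and 10 of 661 elsewhere (1.51%). Some carriers are near-identical arms, such as miR-379-3p and miR-411-3p for GGUCCA. The counts therefore describe the sequences and name no site. A few seeds reach outside the members of the rule. Of the 64, 11 seeds are also held by other miRNAs in the tables, such as that of miR-410-3p by miR-344d-3p and miR-344e-3p, that of miR-329-3p by miR-362-3p, and that of miR-1193-3p by miR-370-5p, itself a Dlk1-Dio3 miRNA.

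In P19 cells the cluster was abundant in control cells and lower in nearly every listed arm on PERK knockdown. The 63 arms summed to 108046 RPM in P19 shNC cells, 10.8% of the reads counted on miRNAs, and to 30052 RPM in P19 shPerk cells, 3.01%. RPM are reads scaled by the authors to a fixed total of reads on miRNAs, and they listed values under 1 RPM at 0. The ratio of the sums was 3.60-fold in RPM. With TMM scaling, which allows for the higher share of other miRNAs in P19 shPerk cells, the sum had a log2 fold change of -1.24 (95% counting interval -1.25 to -1.23). Whole reads could be recovered from the RPM steps, 855298 reads of the cluster in P19 shNC cells and 133939 in P19 shPerk cells. The counting intervals rest on these reads and cover counting error only, not the spread between cultures.

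Among the 63 listed arms, 57 were called lower in P19 shPerk cells and 0 were called higher, while 17.7% of the 696 miRNAs in the table were called lower and 17.7% were called higher. All 63 had a log2 fold change below 0. The arms miR-543-5p, miR-381-5p and miR-487b-5p, at 0 in P19 shPerk cells, were listed through P19 shNC cells only. That fixed their direction, so nothing is read from their calls, though the counts and medians hold them. The median of the 63 was -1.73, a 3.32-fold difference, with quartiles at -2.22 and -1.37. The median over all 696 miRNAs was -0.04. The cluster supplied 46.3% of all lower calls. Counting intervals lay below 0 for 61 of the 63 arms. The choice of scaling shifted every miRNA alike. Under total-count scaling the median of all miRNAs moved to -0.65 and 61 members were called lower beside 247 of all miRNAs, under median-of-ratios factors 57 beside 119, and under upper-quartile factors 59 beside 139. All 63 members stayed below 0 in each scaling, and the median of the members stood 1.69 below that of all miRNAs on the log2 scale (-1.69 in each).

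**Figure D1:**
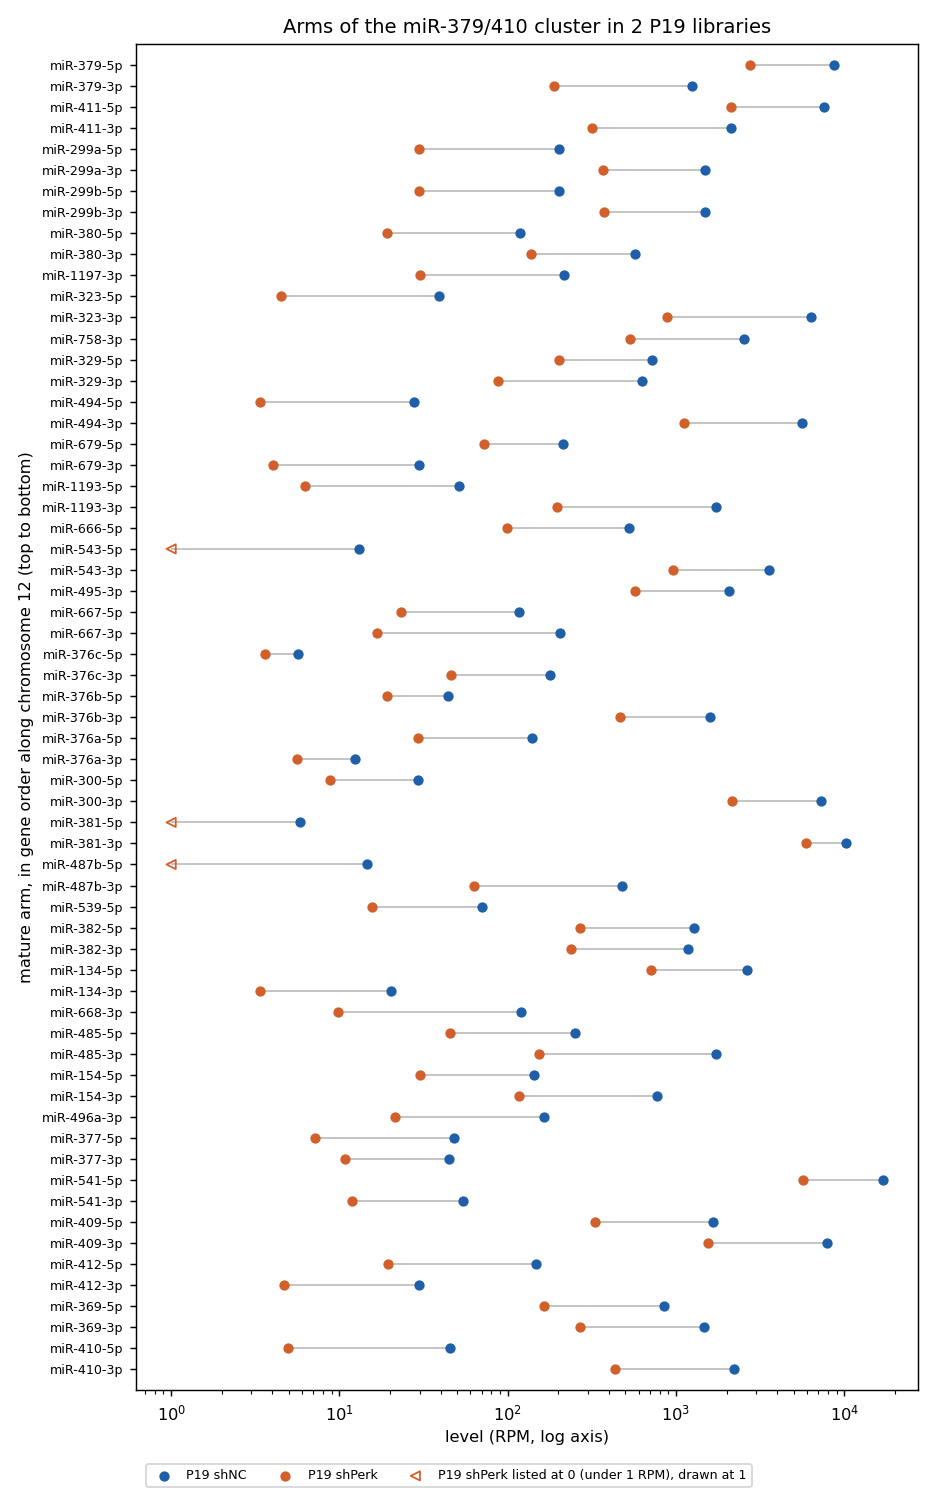
Level in RPM (log axis) of each of the 63 listed arms in P19 shNC cells (blue) and P19 shPerk cells (orange), 1 library each, in gene order from miR-379 to miR-410. The orange point lies left of the blue one for every arm, with the shortest lines at miR-376c-5p and miR-381-3p, and 3 arms listed at 0 in P19 shPerk cells are drawn as open triangles at 1 RPM.

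The most abundant arms made up a larger share of the cluster on PERK knockdown. miR-541-5p, from an intron of Mirg, had 16971 RPM in P19 shNC cells and 5710.25 RPM in P19 shPerk cells, which is -0.97 as log2 fold change (interval -0.99 to -0.95) and lay just outside the fold limit. miR-381-3p was second, with 10219.6 RPM in P19 shNC cells and 5968 RPM in P19 shPerk cells, which is -0.17 as log2 fold change (interval -0.19 to -0.15). These were the highest arms of the cluster in both libraries, with their order exchanged, and neither was called. miR-379-5p, the first arm of the cluster, had 8677 RPM against 2736 RPM, a log2 fold change of -1.06 that lay just inside the limit. miR-409-3p had 7877 RPM against 1559 RPM (log2 fold change -1.73), and miR-411-5p had 7610.22 RPM against 2130 RPM (-1.23). These 5 arms made up 47.5% of the cluster in P19 shNC cells and 60.2% in P19 shPerk cells, and the sum of the cluster had a smaller change (-1.24) than its median arm (-1.73). Of the 5, miR-381-3p had by far the smallest change. miR-411-5p changed about as the sum did, and miR-409-3p fell by more than the sum, so its own share was lower.

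Below these, 24 arms reached 1000 RPM in P19 shNC cells, the 5 above included, 21 lay from 100 to 1000 RPM and 18 were under 100 RPM. In P19 shPerk cells 7 arms reached 1000 RPM and 35 were under 100 RPM. The median arm had 249.8 RPM in P19 shNC cells and 62.8 RPM in P19 shPerk cells. The order of the arms was nearly the same in both libraries (Pearson's r of log2 levels 0.98 over the 60 arms above 0 in both, a description over arms that share the same 2 libraries). The median log2 fold change was -1.65 for the 24 most abundant arms, -2.02 for the 21 in the middle and -2.02 for the 18 lowest. Across arms, the change and the mean level had a Pearson's r of 0.29 and a Spearman's rho of 0.35 (n = 63), against -0.02 and -0.06 over the 633 other miRNAs. The level enters the change itself and all arms share 2 libraries, so no p-value is given.

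**Figure D2:**
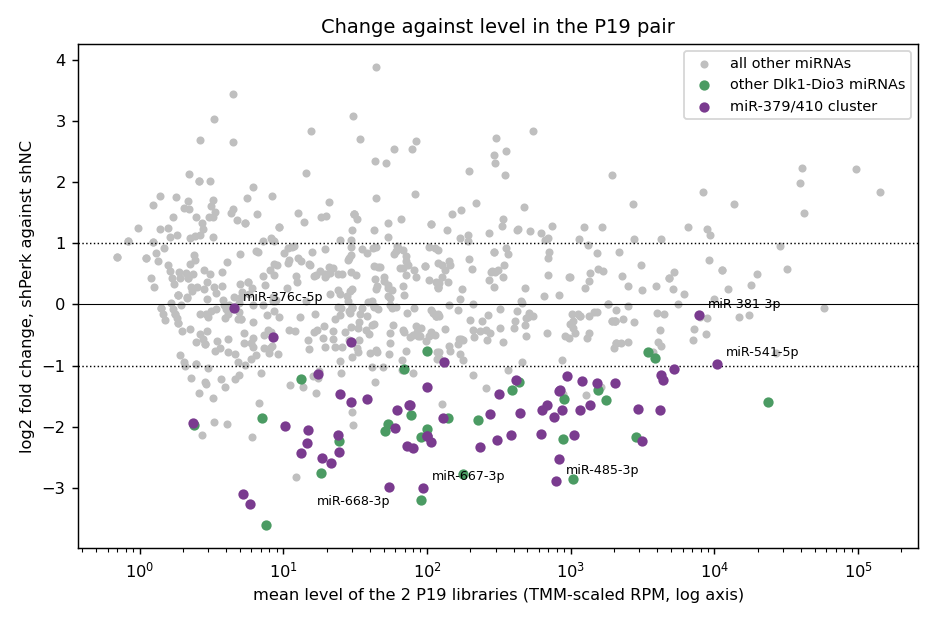
Log2 fold change of P19 shPerk against P19 shNC cells over the mean TMM-scaled level in RPM (log axis) for the 696 listed miRNAs, 1 point each, with the cluster in purple, other Dlk1-Dio3 miRNAs in green and the rest in grey, and dotted lines at the fold limit of 1. The purple points lie below 0 at every level, and the most abundant, miR-541-5p and miR-381-3p, lie above the lower dotted line.

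The largest differences at a mean of at least 10 RPM were not in the most abundant arms of all. miR-667-3p had 204 RPM in P19 shNC cells and 16.8 RPM in P19 shPerk cells, which is -3.00 as log2 fold change (interval -3.35 to -2.66). miR-668-3p had 119 RPM and 9.87 RPM, which is -2.99 as log2 fold change (interval -3.46 to -2.55). miR-485-3p, from the same exonic stretch of Mirg as miR-668, had 1729 RPM and 153.02 RPM, which is -2.89 as log2 fold change (interval -3.01 to -2.78). The interval of each of these lies below those of the 5 most abundant arms. Next to them in size, miR-410-5p had 45.2 RPM and 4.94 RPM (log2 fold change -2.59) and miR-1193-3p had 1738 RPM and 197 RPM (-2.53). The arms miR-543-5p, miR-381-5p and miR-487b-5p, at 13.0, 5.81 and 14.5 RPM in P19 shNC cells, were listed at 0 in P19 shPerk cells. No fold is given for them, and in the counts and medians they were set to 1 RPM.

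Apart from miR-541-5p and miR-381-3p, 4 listed arms were not called. miR-679-5p had 213 RPM and 72.7 RPM, which is -0.95 as log2 fold change (interval -1.12 to -0.77). The others were arms of the miR-376 group, whose hairpins lie close together, with that of miR-654 between miR-376c and the others, and are known substrates of A-to-I editing. miR-376b-5p had 44.2 RPM and 19.1 RPM, which is -0.61 as log2 fold change (interval -0.97 to -0.26). Both remaining arms were scarce, miR-376a-3p with 12.4 RPM and 5.61 RPM (-0.54, interval -1.23 to 0.11) and miR-376c-5p with 5.68 RPM and 3.59 RPM (-0.06, interval -0.98 to 0.79), and these were the arms whose counting intervals reached 0. The opposite arms of the same hairpins were called lower. miR-376b-3p had 1597 RPM and 467.14 RPM (log2 fold change -1.17), miR-376c-3p had 177 RPM and 46.0 RPM (-1.34), and miR-376a-5p had 139 RPM and 29.2 RPM (-1.65).

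The change had little relation to the position along the chromosome. The log2 fold change and the order of the hairpins had a Pearson's r of -0.04 and a Spearman's rho of -0.06 over the 63 arms. At the proximal end, miR-379-3p had 1248 RPM and 189 RPM (log2 fold change -2.12) and its neighbour miR-411-3p, with the same seed, had 2123 RPM and 319 RPM (-2.13). At the distal end, miR-410-3p had 2200.1 RPM and 435 RPM (-1.73). Between them, miR-323-3p had 6322 RPM and 889 RPM (-2.23), the lowest log2 fold change among the 7 highest arms, and miR-494-3p had 5576 RPM and 1116 RPM (-1.72). From the stretch without a host, miR-380-3p had 574 RPM and 136.87 RPM (-1.46), miR-1197-3p 217 RPM and 30.1 RPM (-2.25), and miR-758-3p 2527 RPM and 532 RPM (-1.64). Further along it, miR-543-3p had 3553 RPM and 960.3 RPM (-1.28) and miR-495-3p had 2062 RPM and 572 RPM (-1.24), so these were nearer to the fold limit than most. miR-666-5p had 523 RPM and 99.2 RPM (-1.79), miR-487b-3p had 481 RPM and 62.8 RPM (-2.33), and miR-539-5p had 70.0 RPM and 15.7 RPM (-1.55). Within Mirg, miR-154-3p had 776 RPM and 116 RPM (-2.14), miR-496a-3p 165 RPM and 21.3 RPM (-2.34) and miR-412-5p 148 RPM and 19.5 RPM (-2.32), while miR-377-3p had 45.1 RPM and 10.8 RPM (-1.46).

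Host transcripts divided the cluster with little difference in change. Of the 41 listed arms without an annotated host, 36 were called lower, with a median of -1.72. The 15 arms from exons of Mirg were all called lower, with a median of -1.85, and 6 of 7 arms from its introns were, with a median of -1.72. Summed over arms, the hairpins without a host had 68331 RPM in P19 shNC cells and 19924 RPM in P19 shPerk cells, those in exons of Mirg 12073 RPM and 2349 RPM, and those in its introns 27642 RPM and 7780 RPM, the last owing 16971 RPM and 5710.25 RPM to miR-541-5p.

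A pair of arms with nearly the same sequence differed in its change. miR-300-3p, whose sequence was given beside that of miR-381-3p, had 7230.4 RPM in P19 shNC cells and 2148 RPM in P19 shPerk cells, which is -1.15 as log2 fold change (interval -1.18 to -1.11), while that of miR-381-3p was -0.17, and the intervals do not overlap. Their hairpins are neighbours, miR-300 at chr12:109724313-109724391 and miR-381 at chr12:109726822-109726896. How reads that match more than 1 miRNA were counted is not stated. Among arms with a shared seed, miR-379-5p had -1.06 and miR-1193-5p had -2.42 (51.0 RPM and 6.28 RPM), and miR-494-5p had -2.43 (27.7 RPM and 3.37 RPM) beside -2.59 for miR-410-5p. The arms miR-299a-3p, with 1496 RPM and 371 RPM, and miR-299b-3p, with 1498 RPM and 372 RPM, had the same log2 fold change of -1.41.

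The 5p and 3p arms were lower to a like degree. Of 30 listed 5p arms 26 were called lower, with a median of -1.74, and of 33 listed 3p arms 31 were, with a median of -1.73. The 3p arms carried 60.3% of the reads of the cluster in P19 shNC cells and the 5p arms 39.7%. Both arms were above 0 in both libraries for 25 hairpins. In 14 of these (56.0%) the less abundant arm had the lower fold change, against 102 of 176 hairpins elsewhere in the table (58.0%). For each hairpin, the log2 fold change of the more abundant arm, on the mean of both libraries, was subtracted from that of the less abundant arm. This difference had a counting interval below 0 in 9 hairpins, above 0 in 6 and across 0 in 10, with miR-299a and miR-299b both in the first count. The shares that follow are of the 5p arm, whichever arm was more abundant, so their direction is not the sign of this difference. The 5p share of miR-667 was 36.4% in P19 shNC cells and 58.1% in P19 shPerk cells, so its 3p arm was the larger in one library and the smaller in the other. The 5p share of miR-329 was 53.6% and 69.6%, that of miR-485 was 12.6% and 22.9%, and that of miR-411 was 78.2% and 87.0%. In the other direction, the 5p share of miR-377 was 51.6% and 40%, on few reads and with an interval of the arm difference across 0, and that of miR-376a was 91.8% and 83.9%. Shares of miR-409 (17.4% and 17.5%), miR-382 (52.0% and 53.1%) and miR-369 (36.8% and 37.7%) were nearly equal in both libraries. For miR-134 the 5p arm had 2655 RPM and 715 RPM (log2 fold change -1.29) and the 3p arm 20.3 RPM and 3.37 RPM (-1.99), with the 5p arm at 99.2% and 99.5% of the hairpin.

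**Figure D3:**
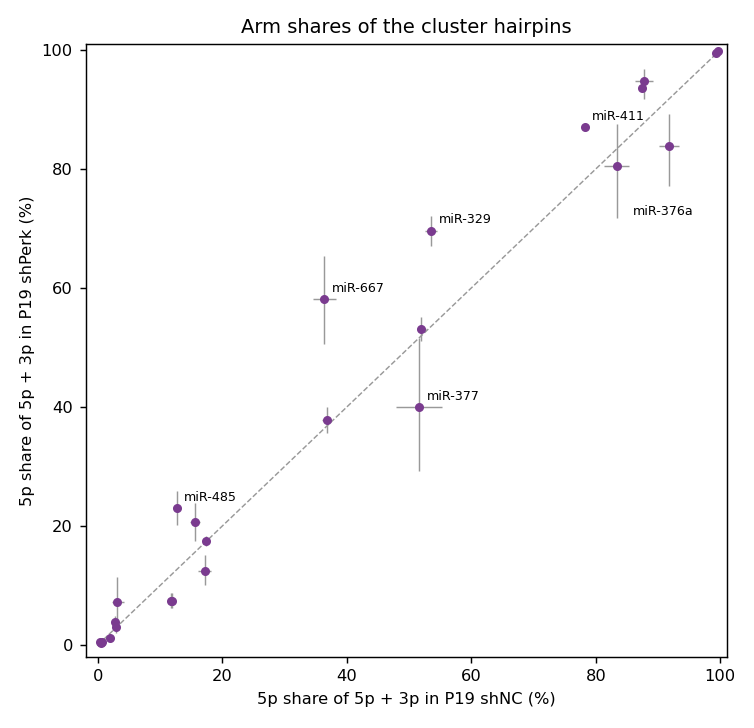
Share of the 5p arm among 5p and 3p reads of each of 25 cluster hairpins in P19 shNC cells (horizontal, %) and P19 shPerk cells (vertical, %), with 95% counting intervals from recovered reads and a dashed line of equal share. Most hairpins lie near the line. Above it are miR-667 (36.4% and 58.1%), miR-329 (53.6% and 69.6%), miR-485 (12.6% and 22.9%) and miR-411 (78.2% and 87.0%). Below it are miR-377 (51.6% and 40%) and miR-376a (91.8% and 83.9%).

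Base composition moved with the change inside and outside the cluster. The GC share of the arm and the log2 fold change had a Pearson's r of -0.39 over 60 members with a sequence and of -0.26 over 513 other miRNAs. The median log2 fold change was -2.25 for the 16 members over 50% GC, -1.68 for the 32 members from 40 to 50% and -1.46 for the 12 members under 40%. For the other miRNAs the same classes had medians of -0.17, 0.23 and 0.44. In each class the median of the members lay below that of the other miRNAs, and the part of base composition in the change was not tested.

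The other miRNAs of the Dlk1-Dio3 region, which lie mostly from Meg3 to Rian, had values like those of the cluster. Lower calls numbered 25 among 28 listed arms and higher calls 0, at a median log2 fold change of -1.87. Their sum was 76458 RPM in P19 shNC cells and 17597 RPM in P19 shPerk cells, or -1.51 as log2 fold change with TMM scaling. Together with the cluster they made up 66.7% of the lower calls in the table. Among the 605 miRNAs outside the region, lower calls numbered 41 (6.78%) and higher calls 123, and the median was 0.16. The 72 listed arms of other imprinted miRNAs had 1 lower and 3 higher calls and a median of 0.01. With TMM factors taken only from miRNAs outside the region, 59 members were called lower, and calls over the whole table shifted to 140 lower and 97 higher.

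**Figure D4:**
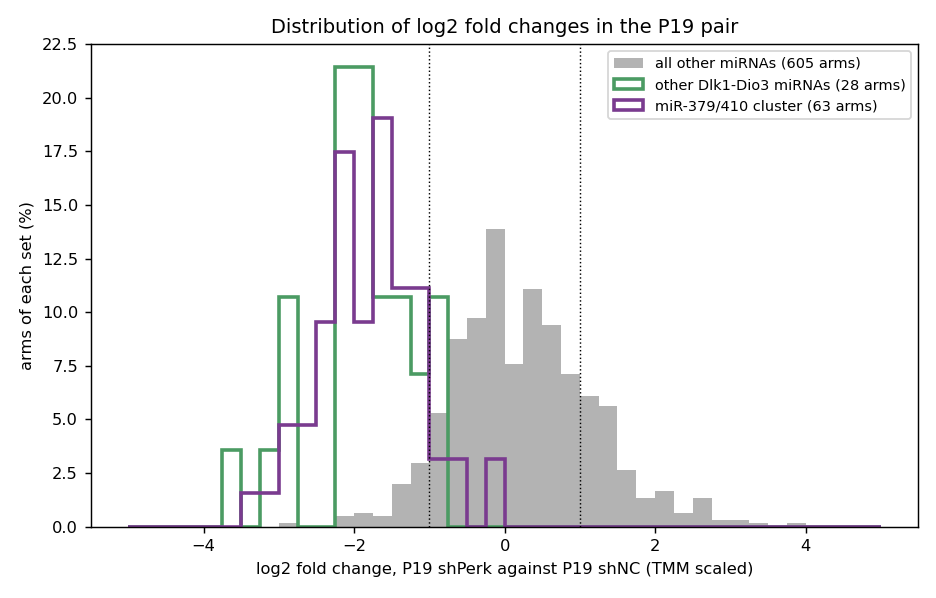
Distribution of log2 fold changes in the P19 pair, as % of the arms of each set in bins of equal width, for the 63 cluster arms (purple), 28 other Dlk1-Dio3 arms (green) and 605 other miRNAs (grey), with dotted lines at the fold limit. The purple and green outlines lie together left of 0, with medians of -1.73 and -1.87, and the grey distribution has its median at 0.16.

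Cell type markers moved between the same 2 libraries. The embryonal carcinoma markers, arms of miR-290 to miR-295, miR-302 and miR-367, summed to 338012 RPM in P19 shNC cells and 563268 RPM in P19 shPerk cells, with 9 of 24 listed arms called higher and 2 lower. The neuron markers, arms of miR-124, miR-9, miR-137 and miR-153, summed to 3923 RPM and 1578 RPM, with 2 of 6 listed arms called higher and 2 lower. Most of that sum was miR-9-5p, with 3358.6 RPM and 1429.2 RPM, which was not called (log2 fold change -0.63). All 7 listed arms of the miR-200 group, which marks epithelium, were called higher, and their sum was 332 RPM and 1399.9 RPM. The 3 listed myoblast arms summed to 34.5 RPM and 96.9 RPM and the 2 listed blood arms to 31.8 RPM and 30.5 RPM. These sums are unscaled RPM, while the calls use TMM scaling. With TMM scaling the sums had log2 fold changes of 1.34 for embryonal carcinoma, -0.71 for neuron and 2.68 for epithelium markers. Those of the myoblast and blood markers were 2.10 and 0.54. The part of these differences in the lower level of the cluster was not tested, and fewer cells that express the cluster cannot be told apart from less of it in each cell.

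In C2C12 cells the cluster was found at trace levels. The count tables held 56 reads of all 74 arms in shNC D0 cells, 60 in shPerk D0 cells, 33 in shNC D3 cells and 41 in shPerk D3 cells. These are 4.95 CPM (the same scaling, computed here from counts, 95% Clopper-Pearson interval 3.74 to 6.42), 6.82 CPM (5.20 to 8.78), 2.75 CPM (1.89 to 3.86) and 4.35 CPM (3.12 to 5.90), of totals from 8800977 to 11993448 reads. The P19 and C2C12 tables were normalized separately, and their levels are only set side by side. Of the 74 arms, 39 had no read in any of the 4 libraries, and 0 reads set a limit of 0.265 CPM for shNC D0, 0.341 CPM for shPerk D0, 0.250 CPM for shNC D3 and 0.318 CPM for shPerk D3 cells. In the same libraries the myoblast markers, arms of miR-1a, miR-133 and miR-206, had from 3850.4 to 88786 CPM.

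Most of the few C2C12 reads lay on arms that were abundant in P19 cells, though not every such arm had them. miR-409-3p had 7 reads in shNC D0, 8 in shPerk D0, 7 in shNC D3 and 5 in shPerk D3 cells. In the same order, miR-379-5p had 8, 8, 2 and 5 reads, and miR-381-3p had 7, 2, 4 and 5 reads. These numbers are too small to order the libraries. miR-543-3p had 5, 6, 1 and 2 reads, miR-494-3p 4, 2, 1 and 2 reads, and miR-541-5p, the highest arm in P19 shNC cells, 4, 1, 0 and 2 reads. By contrast, miR-300-3p, at 7230.4 RPM in P19 shNC cells, had 0, 0, 1 and 0 reads, while miR-382-5p, at 1283 RPM, had 3, 5, 2 and 1 reads. The 11 arms that the P19 table does not list had 4 reads in all. Of 190 reads over all arms and libraries, 171 fell on arms that reached 1000 RPM in P19 shNC cells, and the Spearman's rho of C2C12 reads with the P19 shNC level was 0.75 over 63 arms, a description of arms that share libraries. The embryonal carcinoma markers, at 338012 RPM in P19 shNC cells, had 17, 0, 11 and 2 reads in the 4 C2C12 libraries. The source of these reads was not tested.

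Among the 4 C2C12 hairpin libraries, miR-411-5p alone reached 1 CPM, in shPerk D0 cells, and so entered the fold changes. It passed the filter through that library only, which fixed the direction of both differences below, and nothing is read from its calls. It had 3 reads in shNC D0, 10 in shPerk D0, 1 in shNC D3 and 2 in shPerk D3 cells. Its log2 fold change for shPerk against shNC cells at day 0 was 2.20 with edgeR's prior count, called higher, and the counting interval of the ratio ran from 0.30 to 4.76. In that pair 16.6% of the 602 miRNAs kept were called higher and 19.9% lower. Day 3 against day 0 in shPerk cells gave -1.92, called lower where 15.4% of 573 miRNAs were (33.9% in either direction), with a counting interval of the ratio from -5.21 to 0.26. No arm passed the filter for shPerk against shNC cells at day 3, where 45.0% of 575 miRNAs were called, or for day 3 against day 0 in shNC cells, where 29.0% of 593 were.

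Summed over the 74 arms, shPerk against shNC C2C12 cells had a log2 fold change of 0.62 at day 0 (counting interval 0.07 to 1.17) and 0.93 at day 3 (0.23 to 1.63) with TMM scaling. Scaled to total counts, the values were 0.46 (-0.09 to 1.01) and 0.66 (-0.04 to 1.37), with intervals that reach 0. Day 3 against day 0 had -0.49 in shNC cells (-1.15 to 0.16) and -0.20 in shPerk cells (-0.81 to 0.39). Whether the knockdown intervals reached 0 thus depended on the scaling at this depth.

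In the ATF4 pair the table listed 2 arms of the cluster. miR-543-3p had 1.80 RPM and miR-409-3p 1.13 RPM with the empty vector, and both were listed at 0 with ATF4. The remaining arms are not in that table, and neither listed arm was called with values at 0 set to 1 RPM, in a pair where 8.93% of 605 miRNAs were called lower.

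**Figure D5:**
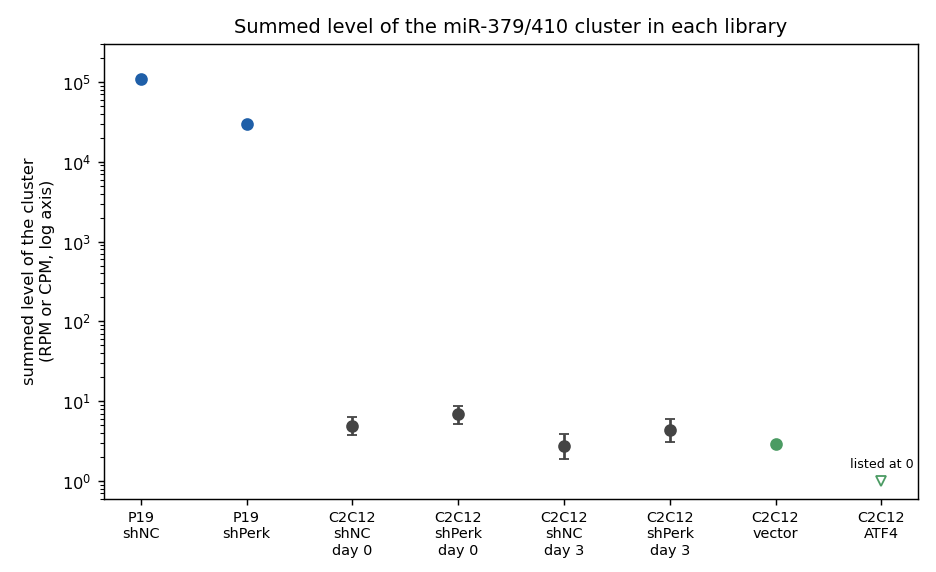
Summed level of the cluster in each of the 8 libraries (log axis), in RPM for the P19 pair (blue) and the ATF4 pair (green) and in CPM with 95% Clopper-Pearson intervals for the C2C12 hairpin libraries (dark grey). The P19 libraries lie at 108046 and 30052 RPM, the C2C12 hairpin libraries from 2.75 to 6.82 CPM, and the ATF4 library, listed at 0, is drawn as an open triangle at 1 RPM.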

How the data were processed

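The authors had linkers ligated to both RNA ends, the product amplified and gel-selected, and reads annotated with bowtie by a company; its version and the rule for reads on several miRNAs are not given in the sources used here, and the labels name the build mm10 (GRCm38). The authors deposited raw counts per mature miRNA for the 4 C2C12 hairpin libraries. The deposited values of the P19 and ATF4 pairs are RPM, in which anything under 1 is set to 0. Neither the deposited log2 fold changes nor the deposited p-values and q-values were used.

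miRNAs with at least 1 CPM or RPM in 1 library of a pair were kept. Log2 fold changes used edgeR's TMM factors over the whole table, with its default prior count for counts and 0 set to 1 RPM otherwise. Whole reads behind the P19 RPM were recovered from the RPM steps, an alternative chosen after seeing the data. At library totals of 7916065 and 4456896 reads, 92.7% and 94.2% of the values above 0 were whole reads within 0.0055 RPM. The ATF4 pair gave 10581260 and 12166788 reads. Intervals are 95% Clopper-Pearson intervals, except those of the difference between the arms of a hairpin. These are exact conditional 95% intervals of the odds ratio of the recovered reads. No molecular identifiers were used, so PCR copies are counted repeatedly and the intervals cover counting error only.

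The named arms are in each comparison the 3 called members that rose most and the 3 that fell most (mean 10 RPM or CPM or more), the 5 highest in P19 shNC and in C2C12 shNC D0 cells, the arms of miR-379, miR-410, miR-134 and miR-376, members with a shared seed, and other listed members in the account of the cluster. The members and lists were chosen with earlier results of these data known.

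Simulated data with known changes were used to test the calls. Alternatives were total-count, median-of-ratios (DESeq2) and upper-quartile scaling, other filters, another prior count or value for 0, calls that also needed an exact binomial test on reads, and members with identical values counted once. Tools were Python 3.11.15, numpy 2.4.6, pandas 2.3.3, scipy 1.17.1, matplotlib 3.10.9, R 4.3.3, edgeR 4.0.16 and DESeq2 1.42.0.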

Additional observations from a re-analysis of the deposited data

Results flagged for a closer look

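The summed cluster had log2 fold changes of opposite sign on PERK knockdown in the 2 cell lines, on few reads in C2C12 cells. Its log2 fold change for shPerk against shNC cells was -1.24 in P19 cells, on 855298 and 133939 reads, and 0.62 at day 0 and 0.93 at day 3 in C2C12 cells, on 56 and 60 reads and on 33 and 41 reads. There was 1 library per condition, and the difference between the lines was not tested. Scaled to total counts or by upper-quartile factors, the C2C12 intervals reached 0, and no direction is read from them.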

How the results depend on the processing

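No paired analysis was possible because the groups compared share fewer than 2 replicate numbers, with 1 library per condition. A fit of the hairpin over the 4 C2C12 libraries with the day as a term was not run. Of the settings tried, 16 moved a result beyond the tolerance used and 68 did not. The tolerance was 1.5 times for a count of members and the counting interval for a level or a sum. Reversals of direction were not scored. Some of the 68 could not move, such as scalings of pairs in which no member was kept. Lifting the filter in P19 cells could not move a count either, since it had removed no miRNA. In P19 cells the number of members called lay between 55 of 61, without the miR-299b arms, and 61 of 63, with total-count scaling. Both miR-299b arms were called lower, so leaving them out removed calls. The number was 57 of 63 where the call also needed the binomial test on recovered reads. The summed P19 log2 fold change of -1.24 became -1.85 with total-count scaling, -1.19 with median-of-ratios factors and -1.38 with upper-quartile factors. The P19 sums were 87604 and 37065 RPM divided by the TMM factors, and 106347 and 29651 RPM without miR-299b. In C2C12 cells, members called without the filter numbered 11 of 74 at day 0 (8 higher, 3 lower), beside 588 of all 1978 miRNAs. They numbered 21 at day 3 (13 and 8, beside 627), 22 for day 3 against day 0 in shNC cells (9 and 13, beside 556) and 24 in shPerk cells (10 and 14, beside 511), all on 10 reads or fewer. With at least 10 CPM the 1 called member was lost (0) at day 0 and for day 3 against day 0 in shPerk cells, where a binomial test on its reads also left 0. In the ATF4 pair upper-quartile factors called 1 member, beside 177 of all 605 miRNAs, and values at 0 set to 0.5 RPM called 2, beside 182. The C2C12 sums at day 0 and day 3 had intervals that reached 0 under upper-quartile as well as total-count scaling. Depth limits the C2C12 values, and the spread between cultures is unknown throughout.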
